A study of Mus musculus with 6 samples.

Results

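The brain pair of the array experiment compares RNA from brains taken 3 h after total-body irradiation with 8.5 Gy with RNA from untreated brains. Its members are the probes with an intensity in both brain columns, which are 27017 of the 29922 probes of the array table, and the 15662 genes they name of 16637 in all. The mice were male FVB animals of 6 to 8 weeks, and every group, untreated mice included, carried a luciferase transgene under a promoter of NF-κB-responsive elements. Irradiated mice received X-rays of 6 MV at 4 Gy per min, and untreated mice received no irradiation. The same design was used for liver and intestine, which gives 6 samples with 1 column per organ and treatment. The methods name replicates from separate mice, but whether a column stands for 1 array or for several mice is not stated, so no spread between replicates can be given, no test was run, and every difference below is between 2 columns. A probe or gene was called higher or lower when its intensity in irradiated brain differed from that in untreated brain by at least 1.8-fold. A gene's change is the mean log2 ratio over its probes.

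Over all probes, 134 were higher (0.496%) and 296 were lower (1.1%) in irradiated than in untreated brain. Over genes, 70 were higher (0.447%) and 144 were lower (0.919%), and the median log2 change of all genes was 0.02. These shares over all genes are the background for every list count below. Most lists are short, so 1 call is a larger share than either in all but the list of olfactory receptors. Lists and their members were chosen with earlier results of these data known, and some genes belong to several lists. The contrasts of a list with all genes are therefore descriptions only. At a looser 1.5-fold, 377 genes (2.41%) were higher and 522 (3.33%) were lower. Both columns had a lowest intensity of 55, a median of 103 and a highest intensity of 49062. The values carry no detection mark. A fold is therefore given below only where both intensities were at least 103, and the size of a log2 change that rests on a dimmer intensity is uncertain. The calls were not spread evenly over the intensities. Among the 2702 brightest probes, with mean intensities of 438 or more, 25 were higher and 135 lower, with a median log2 ratio of 0.09, and no probe with a mean intensity under 76.0 passed the threshold. When 50 was added to every intensity, 31 genes were higher and 84 lower, and of 90 genes named by a fixed rule 24 lost their call, among them Trp53inp1, Cdkn1a, Pmm1, Insr, Map3k11, Hspa4, Nr4a1, Tjp1, Tubb3, Oxt, Ttr, Blk, Mrpl18 and Mrps24.

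**Figure D1:**
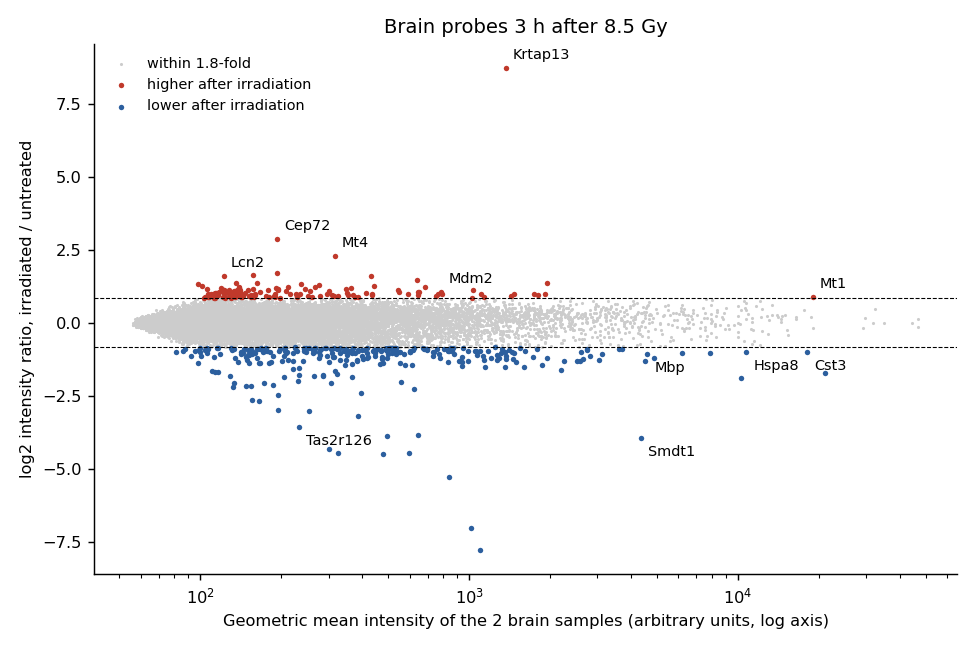
Each point is 1 probe, with the geometric mean intensity of the 2 brain samples on a log axis and the log2 ratio of irradiated to untreated brain, and dashed lines at 1.8-fold. Red points are the 134 higher probes and blue points the 296 lower probes. The lower ones reach further into the bright probes, and no probe under 76.0 is coloured.

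Repeat measurements exist only where a gene has several probes. For the 2635 genes with exactly 2 probes, Pearson's r between the log2 ratios of the 2 probes was 0.02 across genes, with a Spearman's rho of 0.01. Genes are not independent replicates, and both probes share the columns. Where both probes lay at or above the median intensity (947 genes), Pearson's r was 0.03, and where both lay at or above 1000 (21 genes) it was 0.25. Among the liver values r was 0.05 over 2724 genes, and among the intestine values 0.10 over 2888 genes. Of the called genes, 68 of the 70 higher and 136 of the 144 lower were read by a single probe. Thus, a call in brain usually rests on 1 probe in 1 pair of columns, and the values of each probe are given for many, not all, of the named genes that have several.

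The tissue carried the transcripts of brain. All 16 measured neuron markers and all 22 measured oligodendrocyte and myelin markers had a probe at or above the median intensity, as did 18 of 20 astrocyte markers. The probes of Snap25, which encodes a protein of transmitter release, read 11251 and 7090 in irradiated brain and 14743.5 and 5533 in untreated brain. Genes of some other organs were mostly dim, with 4 of 11 enterocyte genes, 6 of 15 hepatocyte genes and 1 of 6 pituitary hormones at or above the median. This did not hold for every list from outside the brain. At or above the median were 8 of 15 skeletal muscle genes, 8 of 15 neutrophil genes and 8 of 17 keratin genes. Only 4 of 13 red blood cell genes were measured, so blood left in the vessels can hardly be followed here.

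Ionizing radiation breaks DNA, and the kinases that sense the breaks stabilize p53, which switches on genes that halt the cell cycle, repair DNA or kill the cell, and also Mdm2, which degrades p53 again. The adult brain consists mainly of cells that do not divide. Its neurons, myelin-forming oligodendrocytes, astrocytes, microglia and blood vessels differ in their sensitivity, and oligodendrocytes and their precursors are among the more sensitive. Whole-body exposure also raises stress hormones and cytokines, which reach the brain through the blood and act through the glucocorticoid receptor and NF-κB.

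A few effector genes of p53 were higher in irradiated brain. Of 25 measured p53 targets of arrest, repair and feedback, 4 were higher (against 0.447% of all genes) and 1 was lower (against 0.919%), the list's median log2 change was 0.25 against 0.02 over all genes, and 18 of 25 were above 0. Mdm2, the ubiquitin ligase that degrades p53, had an intensity of 1132 in irradiated brain and 546 in untreated brain, which is 2.07-fold higher. Phlda3, an inhibitor of Akt signalling, read 367.5 in irradiated brain and 164 in untreated brain (2.24-fold higher). Trp53inp1, a cofactor of p53, read 193 in irradiated and 91.5 in untreated brain. The brighter probe of Cdkn1a, the p21 inhibitor of cyclin-dependent kinases, read 615 in irradiated and 308.5 in untreated brain (1.99-fold higher), and its dimmer probe read 120 in irradiated and 73 in untreated brain, which gives a log2 change of 0.86 for the gene. Of these 4 genes only Cdkn1a had more than 1 probe, and each of its probes was higher. Of the 5 list members with 2 or more probes, 3 had all probes on the same side of 0.

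The bases before the start of Cdkn1a are shown because 1 of its promoter windows matched the p53 response element. RefSeq windows of the build GRCm38.p6 were searched over the 250 bases before each annotated start, on both strands, for the p53 response element, taken as a pair of half-sites separated by at most 13 bases. It was found in 21 of 32851 windows (0.0639%), and 1 of the 2 windows listed for Cdkn1a was among them. The windows of Mdm2, Phlda3 and Ccng1 held no match. The stretch below is chr17:29090886-29090978 on the plus strand and ends at the base before the start, with the matched element in capitals.
Cdkn1a: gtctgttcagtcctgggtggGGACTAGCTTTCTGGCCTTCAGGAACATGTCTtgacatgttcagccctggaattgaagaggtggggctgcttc
The match is a description of the letters and does not show that p53 was bound there in these brains. Its capitals mark only what this search matched before 1 of the 2 listed starts. Other or imperfect elements nearby were not marked.

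Other targets of this list lay within the threshold. Ccng1, cyclin G1, came close, with 902.5 in irradiated and 462.5 in untreated brain at its brighter probe (1.95-fold) and 140.5 in irradiated and 107 in untreated brain at its dimmer one (1.31-fold), for a log2 change of 0.68. At 1.5-fold, 7 members were higher, with Ei24 (405 irradiated, 258.5 untreated), which encodes a membrane protein of the endoplasmic reticulum, and Xpc (187.5 irradiated, 121 untreated), which recognizes damaged DNA, beside the 5 genes above. Pmm1, a phosphomannomutase, was the 1 lower member, with 164.5 in irradiated and 318.5 in untreated brain (1.94-fold lower). Plk2, a polo-like kinase, lay below 0, with 860.5 in irradiated and 1276.75 in untreated brain. Several well-known targets showed next to no difference, as Zmat3 read 447.5 in both, and Gdf15 (71.5 irradiated, 66.5 untreated) and Epha2 (64.5 irradiated, 65.5 untreated) sat near the lowest intensities.

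**Figure D2:**
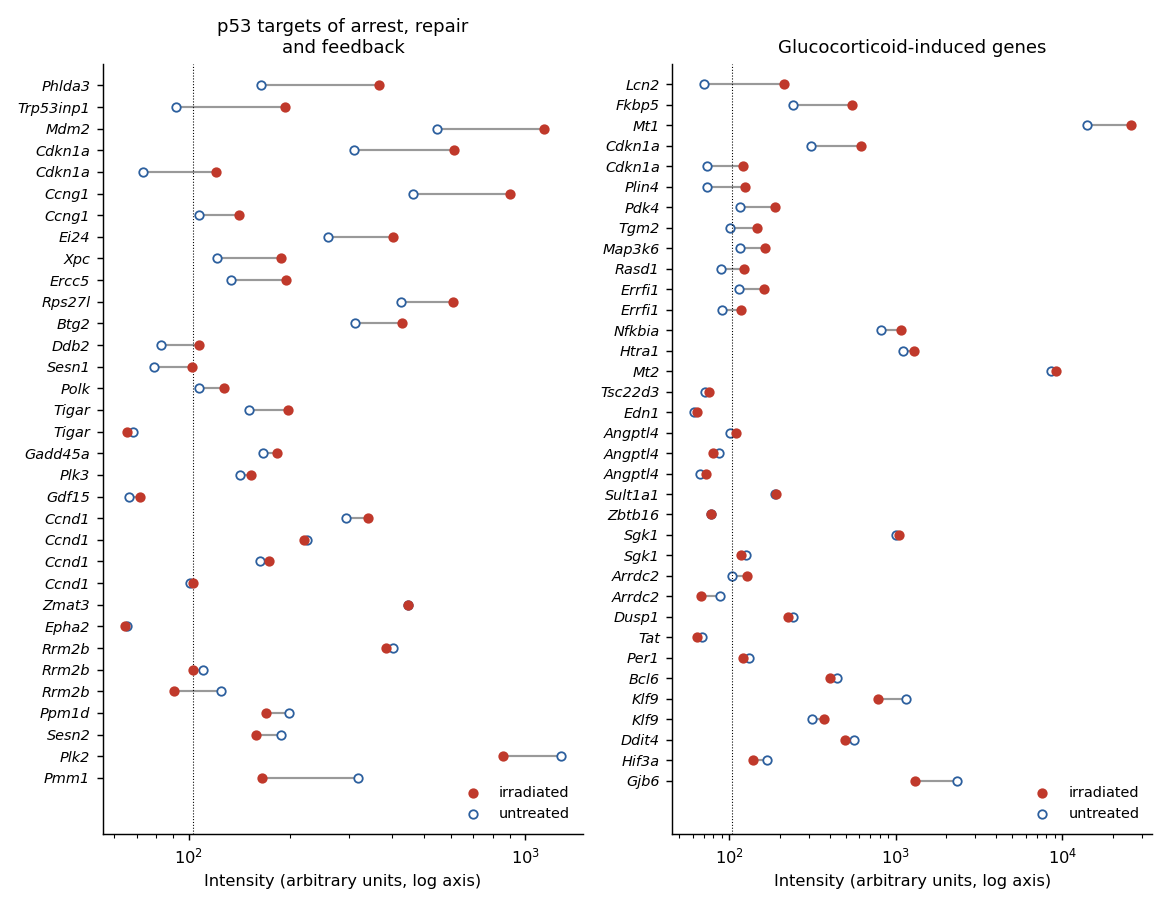
Each row is 1 probe of a measured list member, with its intensity in irradiated brain (filled) and untreated brain (open) on a log axis, in descending order of the gene's log2 change, and a dotted line at the median intensity of 103. In the p53 list the filled points lie to the right in the upper rows and to the left for Plk2 and Pmm1, and in the glucocorticoid list the wide gaps are limited to the top rows and Gjb6.

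Genes by which p53 promotes cell death gave no call. None of 13 measured p53 targets of cell death passed the threshold in either direction, and their median log2 change was 0.13. With the brightest probe standing for its gene, 1 was higher. The largest was Pmaip1, which encodes the BH3-only protein Noxa, with a mean of 0.57. Its brightest probe read 321 in irradiated and 139 in untreated brain (2.31-fold higher), and its other probes read 94.5 and 81.5 in irradiated brain and 70.5 and 77 in untreated brain. Siva1 (204.5 irradiated, 143.5 untreated) and Perp (170 irradiated, 120 untreated) followed, and Bbc3, which encodes Puma, read 95.5 in irradiated and 103 in untreated brain. Of 31 measured genes on a list of DNA damage sensing and repair, none passed the threshold, with a median of 0.02. The 3 largest on the list were the mismatch repair gene Msh6, whose probes read 293.5 and 157.5 in irradiated and 169 and 106 in untreated brain, Fancd2 (124.5 irradiated, 90 untreated) and Xrcc5 (410.25 irradiated, 302.5 untreated). The list does not hold every repair gene. Among those outside it, Ercc8 was higher (175.5 irradiated, 95.5 untreated). Bard1 (64.5 irradiated, 120 untreated) and Alkbh2 (84 irradiated, 351 untreated) were lower. None of 26 mitotic genes and none of 31 DNA replication genes passed the threshold, and only 4 of the mitotic genes had a probe at or above the median intensity.

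Genes induced by glucocorticoids were split. Of 28 measured members 4 were higher (14.3%, against 0.447% of all genes), none was lower, and the median log2 change was 0.06. With the intensity trend removed 2 were higher and 1 was lower, and with quantile normalization of all columns 3 were higher and 1 was lower. Fkbp5, which binds the glucocorticoid receptor complex as a cochaperone, read 546 in irradiated and 242 in untreated brain (2.26-fold higher). Lcn2, which encodes the iron-binding lipocalin 2, read 211.5 in irradiated brain and 70.5 in untreated brain, where it was near the lowest intensities. Mt1, a metallothionein, read 25670.5 in irradiated and 14027.5 in untreated brain (1.83-fold higher), just past the threshold, and Cdkn1a is the fourth. The calls for both were lost when the intensity trend was removed, and that for Mt1 also with quantile normalization. Plin4, a lipid droplet protein (124.5 irradiated, 73 untreated), and Pdk4, a kinase that restrains pyruvate dehydrogenase (187.5 irradiated, 115 untreated), passed 1.5-fold. Other genes that glucocorticoids induce in many tissues did not differ by much: Sgk1 read 1045 and 118 at its probes in irradiated brain and 1003 and 126.5 in untreated brain, Per1 read 121 in irradiated and 130.5 in untreated brain, and the probe of Tsc22d3 was dim in both (75 irradiated, 71.5 untreated). The gap junction gene Gjb6, also on this list, had 1309.5 in irradiated and 2340.5 in untreated brain.

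Metallothioneins bind zinc and copper and are induced by metals, glucocorticoids and inflammation. Of 11 metallothionein and zinc transporter genes 2 were higher (18.2%, against 0.447% of all genes) and none was lower, with a median of 0.04. Mt4, which is known from stratified epithelia, read 697 in irradiated brain and 143.5 in untreated brain (4.86-fold higher). Mt2 read 9177.5 in irradiated and 8483.5 in untreated brain (1.08-fold), and Mt3, the form of neurons and astrocytes, read 656.5 in irradiated and 855.5 in untreated brain. So Mt1 passed the threshold and its neighbour on chromosome 8, Mt2, did not, and their difference has no test.

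Stretches before the starts of Mt1 and Mt2 are shown to set the promoters of these neighbours side by side. Searched as above, the palindromic glucocorticoid receptor motif, taken as GNACA, NNN and TGTNC in a row, was held by 127 of 32851 windows (0.387%), among them Mt1 but not Mt2, Mt4, Lcn2 or Fkbp5. TGCNCNC, the core of the metal response element, was held by 44.4% of windows, with 1 match before Mt1, 5 before Mt2 and 4 before Mt4. Bases after each annotated start were not searched, so these matches may not cover the whole promoter of any of these genes. The match numbers therefore do not rank the genes by their metal response elements. Both stretches are on the plus strand, chr8:94178975-94179088 for Mt1 and chr8:94172375-94172617 for Mt2, and end at the base before the start. Capitals mark every match of either motif, of which the first in Mt1 is the glucocorticoid receptor motif and all others are metal response cores.
Mt1: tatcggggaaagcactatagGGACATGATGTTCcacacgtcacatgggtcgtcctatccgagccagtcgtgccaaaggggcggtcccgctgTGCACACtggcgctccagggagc
Mt2: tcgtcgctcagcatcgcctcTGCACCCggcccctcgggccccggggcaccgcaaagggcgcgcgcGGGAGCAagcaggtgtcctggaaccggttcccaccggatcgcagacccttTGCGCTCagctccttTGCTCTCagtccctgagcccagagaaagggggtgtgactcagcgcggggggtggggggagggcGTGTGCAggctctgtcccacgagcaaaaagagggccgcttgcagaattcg

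NF-κB was the pathway that the reporter mice were made to follow. None of 20 measured NF-κB subunits, inhibitors and kinases passed the threshold, and their median log2 change was 0.10. The 3 largest were Bcl3 (153.5 in irradiated and 215.5 in untreated brain), Nfkbib (132.5 irradiated, 99.5 untreated) and Nfkbia, the inhibitor IκBα that NF-κB itself induces (1077.25 irradiated, 812.5 untreated, 1.33-fold higher). Of 25 measured inflammatory NF-κB targets 2 were higher (8%, against 0.447% of all genes) and none was lower. The list's median was 0.18, and 21 were above 0. The higher genes were Lcn2 and Birc3, an inhibitor of apoptosis, which read 260 in irradiated and 102 in untreated brain. At 1.5-fold 5 members were higher, with the cytokine gene Csf1 (190.5 irradiated, 124.5 untreated), the adhesion molecule gene Icam1 (101 irradiated, 66.5 untreated) and the pattern receptor gene Tlr2 (127.5 irradiated, 84.5 untreated) added. The main cytokines stayed at dim probes, as Tnf read 81.5 in both, Il1b read 86.5 in irradiated and 110 in untreated brain, and Ccl2 read 83 in irradiated and 74 in untreated brain. Only 12 of the 25 targets had a probe at or above the median intensity. The promoter windows of Lcn2 and Birc3 held no match to the NF-κB site, which 7.25% of windows held.

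Of 23 measured interferon-induced genes 1 was lower and none was higher, with a median of 0.03. It was Irf7, the regulator of the type I interferon response, with 509.5 in irradiated and 1185 in untreated brain (2.33-fold lower), while Ifit3 (239.5 irradiated, 197.5 untreated) and Isg15 (110 irradiated, 90 untreated) lay within the threshold. Of 30 immediate early genes, which neurons switch on with activity, 1 was lower: the nuclear receptor gene Nr4a1 read 372.5 in irradiated and 684 in untreated brain (1.84-fold lower). Egr1 read 3214.5 in irradiated and 4051.5 in untreated brain, Arc read 521.5 in irradiated and 655 in untreated brain, Junb read 362 in irradiated and 494 in untreated brain, and 19 of the 30 were below 0. None of 17 circadian clock genes passed the threshold, and the 3 largest were all below 0, namely Rora (221 irradiated, 364 untreated), Dbp (1215.5 irradiated, 1962 untreated) and Per2 (256 irradiated, 411 untreated). The hour of day at which each brain was taken is not given, and its part in these values was not tested.

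Oligodendrocyte and myelin genes were mostly on the lower side. Of 22 measured members 1 was lower and none was higher, the median log2 change was -0.21, and 17 were below 0. Mbp, myelin basic protein, read 3143.5 in irradiated brain and 6676 in untreated brain (2.12-fold lower). At 1.5-fold 4 members were lower, with the myelin enzyme Cnp (216.5 irradiated, 363 untreated), the myelin surface protein Mog (251 irradiated, 413.5 untreated) and the tight junction protein Cldn11 of the myelin sheath (2062 irradiated, 3355 untreated). Olig2, a transcription factor of the lineage, read 368.5 and 91.5 at its probes in irradiated brain and 483.5 and 140 in untreated brain. The list was not of one direction, as Olig1 (2112.5 irradiated, 1611.25 untreated), Mag (758.5 irradiated, 631 untreated) and both probes of Tspan2 (385.5 and 345 in irradiated, 327 and 277.5 in untreated brain) lay above 0. The probes of Mobp opposed each other, with 312.5 and 357 in irradiated and 426.5 and 271 in untreated brain. None of 8 precursor markers passed the threshold, and their median was 0.00. In whole brain, fewer cells of a type and less RNA per cell cannot be told apart.

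Among astrocyte genes the bright probes went both ways. Of 20 measured markers 3 were lower (15%, against 0.919% of all genes) and none was higher, with a median of -0.06. Gja1, which encodes connexin 43 of the astrocyte gap junctions, read 1600.5 in irradiated and 3966 in untreated brain (2.48-fold lower), and Gjb6, connexin 30 of the same cells, read 1309.5 in irradiated and 2340.5 in untreated brain (1.79-fold lower), just within the threshold. Apoe, the apolipoprotein that carries lipids between brain cells, read 1890 in irradiated and 4169 in untreated brain (2.21-fold lower). The protease inhibitor gene Cst3 read 12670 in irradiated and 25670.5 in untreated brain (2.03-fold lower). The glutamine synthetase gene Glul (10711.5 irradiated, 7576.5 untreated), the glutamate transporter gene Slc1a3 (4068 irradiated, 3457 untreated) and Mlc1 (5386.5 irradiated, 3668.5 untreated) lay above 0 instead. Gfap, the filament of reactive astrocytes, read 411 and 83 at its probes in irradiated brain and 300.5 and 87 in untreated brain. Summed over the list, intensity was 46593 in irradiated and 60215 in untreated brain, a difference that lies mostly in Cst3.

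**Figure D3:**
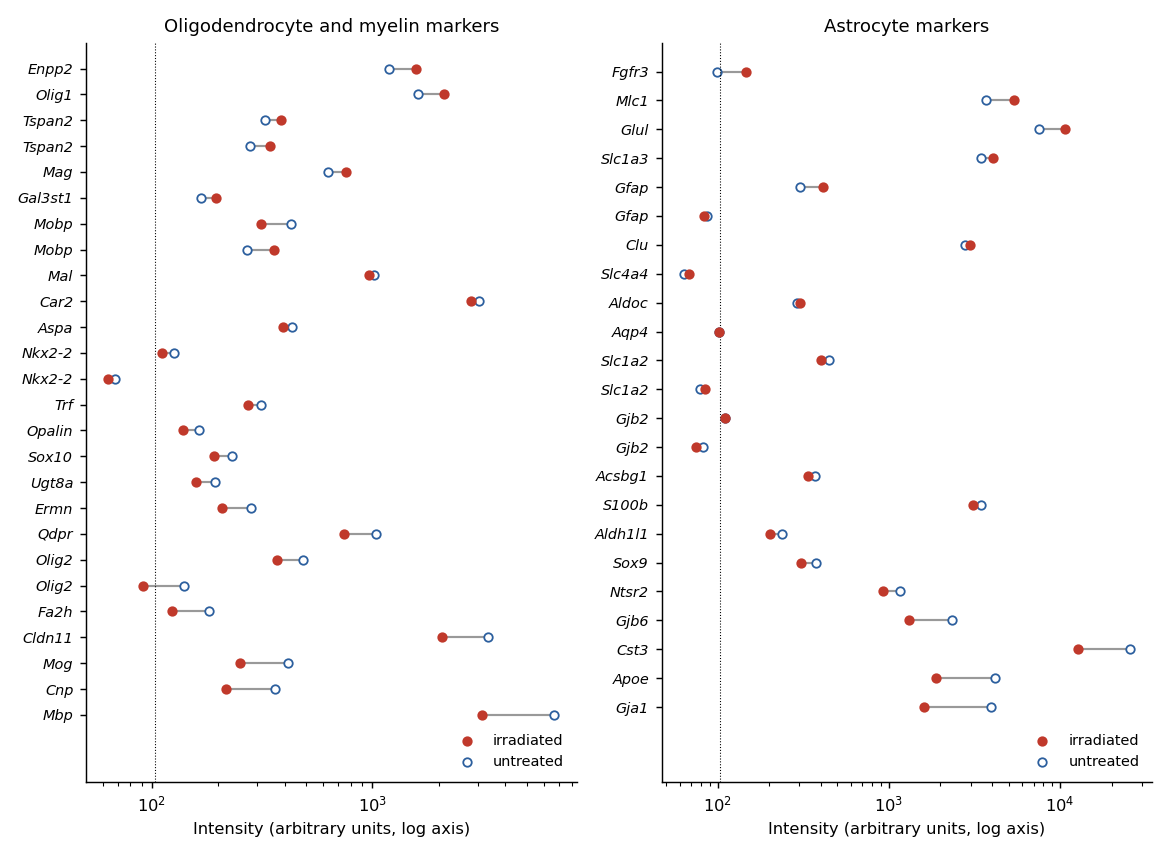
Each row is 1 probe, with its intensity in irradiated brain (filled) and untreated brain (open) on a log axis, genes in descending order of log2 change, and a dotted line at the median intensity of 103. In the myelin list the filled points lie to the left in most lower rows and the gap is widest for Mbp. In the astrocyte list Gjb6, Cst3, Apoe and Gja1 stand apart from 16 others with narrow gaps.

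Markers of the remaining cell types gave single calls. Of 22 microglia and macrophage markers 1 was lower, with a median of -0.06: P2ry12, the purine receptor of resting microglia, read 299.5 in irradiated and 665.5 in untreated brain (2.22-fold lower), while Aif1 (364 irradiated, 418.5 untreated), Tmem119 (204.5 irradiated, 175.5 untreated) and Csf1r (438 and 71.5 in irradiated, 399.5 and 69 in untreated brain) lay within the threshold. Of 19 endothelial and blood-brain barrier markers 1 was lower, with a median of -0.09: the junction scaffold gene Tjp1 read 390 in irradiated and 716 in untreated brain (1.84-fold lower), and Itm2a read 203.5 in irradiated and 365.5 in untreated brain. The barrier genes Cldn5 (178 irradiated, 198.5 untreated) and Slc2a1 (521.5 irradiated, 359 untreated) lay on either side of 0. Of 12 pericyte and smooth muscle markers none passed the threshold, with Des (154.5 irradiated, 233.5 untreated), Notch3 (128.5 irradiated, 90 untreated) and Myh11 (139 irradiated, 177 untreated) the 3 largest. Of 16 neuron markers 1 was lower, with a median of -0.18: Tubb3, a neuronal tubulin, read 507.5 in irradiated and 952.5 in untreated brain (1.88-fold lower). Of the 16 neuron markers 11 were below 0, while Thy1 (2384 irradiated, 1770 untreated) and Eno2 (4189 irradiated, 3143.5 untreated) were among 5 above it. With the intensity trend removed the median was -0.29 for neuron markers and -0.25 for the myelin list.

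Choroid plexus and ependymal markers had the highest median of the brain cell types, 0.25 over 12 measured genes. Ttr, the transthyretin that the choroid plexus secretes into the cerebrospinal fluid, read 428.5 in irradiated and 229 in untreated brain (1.87-fold higher) and was the 1 member past the threshold, a call that was also lost when the intensity trend was removed. The cilia genes Tmem212 (144.5 irradiated, 86.5 untreated) and Foxj1 (117 irradiated, 89 untreated) and the water channel gene Aqp1 (172.5 irradiated, 129.5 untreated) lay above 0. Folr1 (65.5 irradiated, 60.5 untreated), Otx2 (63.5 irradiated, 68 untreated) and Kcne2 (67.5 irradiated, 69 untreated) sat near the lowest intensities in both. The summed intensity of the list was 3246.5 in irradiated and 2518.75 in untreated brain, and the amount of choroid plexus taken with each brain was not tested. The 15 neutrophil genes had a median of 0.05 and the 14 B and T cell genes one of -0.02. Of the neutrophil genes only Lcn2 was higher, while S100a8 read 140.5 in irradiated and 136 in untreated brain and S100a9 read 94.5 in both. Of the B and T cell genes only the kinase gene Blk was higher (209.5 irradiated, 113 untreated).

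**Figure D4:**
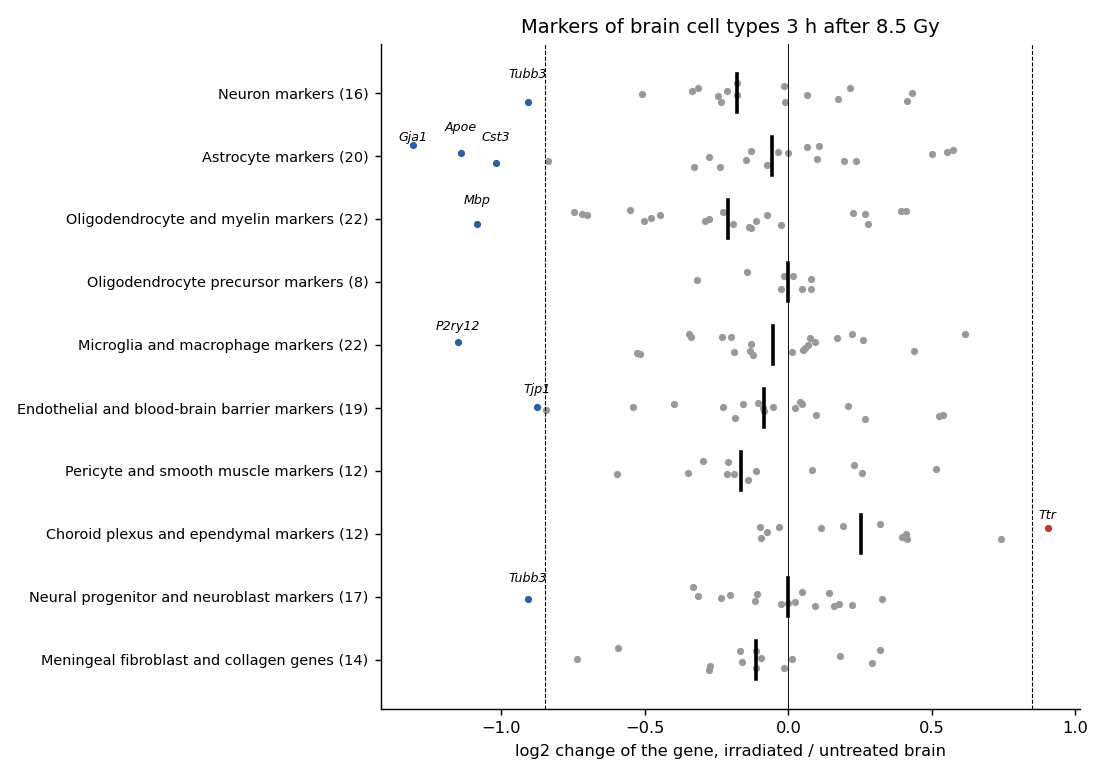
Each point is 1 gene's log2 change between irradiated and untreated brain, with the number of measured genes beside each list, black bars at the medians and dashed lines at 1.8-fold. Few points lie beyond the dashed lines, Ttr is the one above them in the choroid plexus list, and the medians lie between -0.21 for myelin and 0.25 for choroid plexus.

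Receptors, channels and the synapse showed few calls. None passed the threshold among 17 ionotropic glutamate receptors, 7 metabotropic glutamate and GABA-B receptors, 19 GABA-A and glycine receptors, 21 receptors of dopamine, serotonin and noradrenaline, 26 sodium and calcium channels, 38 potassium channels, 27 synaptic vesicle genes and 25 genes of the postsynaptic density. The largest in 6 of these lists were the AMPA receptor subunit gene Gria2 (231 in irradiated and 371.5 in untreated brain), the serotonin receptor gene Htr2c (154.5 irradiated, 271 untreated), the GABA-A subunit gene Gabra4 (115 irradiated, 188.5 untreated), the potassium channel gene Kcnj4 (413.25 irradiated, 232 untreated), the vesicle GTPase gene Rab3a (3355 irradiated, 5585 untreated) and the adhesion gene Nlgn1 (198.5 irradiated, 354.5 untreated). Some of these lists had calls under other settings. With the brightest probe 1 gene was lower in each of the sodium and calcium channel, potassium channel and postsynaptic lists. With the intensity trend removed 1 was lower among dopamine, serotonin and noradrenaline receptors, potassium channels, vesicle genes and postsynaptic genes. Quantile normalization gave 1 lower vesicle gene, 1 lower postsynaptic gene, and 1 higher and 1 lower potassium channel. Of 16 acetylcholine receptors 1 was lower, the muscarinic receptor Chrm4 (107 irradiated, 245 untreated, 2.29-fold lower). Of 27 genes of transmitter synthesis, transport and breakdown 1 was higher: Maob, the monoamine oxidase of astrocytes, read 1052.5 in irradiated and 445.5 in untreated brain (2.36-fold higher), while the probes of its relative Maoa read 306.5 and 107 in irradiated and 426.5 and 123.5 in untreated brain. Of 28 neuropeptides 1 was higher, the oxytocin gene Oxt (182 irradiated, 99.5 untreated). Trh, which encodes thyrotropin-releasing hormone, read 266 in irradiated and 150.5 in untreated brain, and the vasopressin gene Avp read 65.5 in irradiated and 101 in untreated brain.

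Lists of protein synthesis and folding held a few calls, all downward, while among the 2702 brightest probes overall 135 were lower and 25 higher. Of 33 translation factors 2 were lower (5 with the intensity trend removed or with quantile normalization, 1 with 50 added), with a median of -0.09: the helicase gene Eif4a1 read 954 in irradiated and 1935.5 in untreated brain (2.03-fold lower), and Eif2s3x, a subunit of the factor that brings the initiator tRNA, read 375.5 in irradiated and 687.5 in untreated brain (1.83-fold lower). Of 20 heat shock proteins and cochaperones 2 were lower, with a median of -0.06. Hspa8, the constitutive Hsc70, read 7576.5 in irradiated and 15141.5 in untreated brain (1.998-fold lower), and Hspa4 read 177 in irradiated and 334 in untreated brain (1.89-fold lower). Of 39 proteasome subunits 1 was lower, Psma2 (916 irradiated, 2033 untreated, 2.22-fold lower), although the list's median was 0.10. The ribosomal protein gene Rps27 read 5495 in irradiated and 11251 in untreated brain (2.05-fold lower), the 1 call among 21 cytosolic ribosomal proteins (with quantile normalization 1 was also higher), and Rpl41 of the same list read 13619 in irradiated and 8102.5 in untreated brain. Of 67 mitochondrial ribosomal proteins 2 were lower, Mrpl18 (258.75 irradiated, 503.5 untreated) and Mrps24 (633.5 irradiated, 1148 untreated), against a median of 0.18 and 44 genes above 0. None of 24 genes of endoplasmic reticulum stress passed the threshold, with Edem1 (303.5 irradiated, 181 untreated), Dnajb9 (610 irradiated, 377.5 untreated) and Ddit3 (199.5 irradiated, 314.5 untreated) the 3 largest.

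In energy and redox metabolism, single enzymes passed the threshold in lists whose medians lay between -0.13 and 0.08. Pcx, the pyruvate carboxylase of astrocytes, read 2704 in irradiated and 1356 in untreated brain (1.99-fold higher). Idh3a (359 irradiated, 745 untreated, 2.08-fold lower) and the citrate synthase gene Cs (517.25 irradiated, 1039 untreated, 2.01-fold lower) act in the citrate cycle, which Pcx feeds with oxaloacetate, and the list of 32 genes had 1 higher, 2 lower and a median of 0.00. None of 61 respiratory chain genes and none of 22 glycolysis genes passed the threshold, with medians of 0.08 and 0.02. With the intensity trend removed both medians were -0.04 and 2 respiratory chain genes were lower, and quantile normalization also gave 2. The glutathione peroxidase gene Gpx1 read 242 in irradiated and 608 in untreated brain (2.51-fold lower), the 1 call among 26 antioxidant enzymes. Acadl, which oxidizes long-chain fatty acids, read 205.5 in irradiated and 468.5 in untreated brain (2.28-fold lower), and Aacs, which activates acetoacetate for lipid synthesis, read 183 in irradiated and 374 in untreated brain (2.04-fold lower). In insulin and mTOR signalling, Rheb, the GTPase that activates mTORC1, read 349.5 in irradiated and 953 in untreated brain (2.73-fold lower), and the insulin receptor gene Insr read 181 in irradiated and 89 in untreated brain, the 2 calls among 45 genes. The light chain gene Myl12b read 1290 in irradiated and 2950.5 in untreated brain (2.29-fold lower), the 1 call among 51 genes of the actin cytoskeleton (3 lower with the intensity trend removed or with quantile normalization), and Map3k11 read 222 in irradiated and 102 in untreated brain, the 1 call among 70 genes of MAP kinase signalling.

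The largest single differences came from genes outside these pathways. Krtap13, a keratin-associated protein of hair, read 28116.5 in irradiated brain and 66.5 in untreated brain, while the 16 other measured genes of the keratin list lay within the threshold. Krt84, a hair keratin outside that list, read 291 in irradiated and 126.5 in untreated brain (2.30-fold higher). Cep72, a centrosomal protein, read 517.25 in irradiated and 71.5 in untreated brain. Dhrs1, a dehydrogenase, read 1069.75 in irradiated and 384 in untreated brain (2.79-fold higher), Hipk3, a kinase, read 411 in irradiated and 174.5 in untreated brain (2.36-fold higher), and Lrrk2, a kinase whose human gene is mutated in Parkinson disease, read 520 in irradiated and 231 in untreated brain (2.25-fold higher). Reps1 (689.25 irradiated, 285 untreated), an adaptor of endocytosis, Pafah1b3 (291 irradiated, 130.5 untreated), a catalytic subunit of platelet-activating factor acetylhydrolase, and the splicing gene Snrnp35 (263.5 irradiated, 120 untreated) were 2.42-, 2.23- and 2.20-fold higher.

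Apart from Krtap13, the lower side held the larger differences. Smdt1, a part of the mitochondrial calcium uniporter, read 1102.5 in irradiated and 17135.5 in untreated brain (15.5-fold lower), and Rbfa, a ribosome assembly factor of mitochondria, read 171.5 in irradiated and 910.75 in untreated brain (5.31-fold lower). The taste receptor gene Tas2r126 read 67.5 in irradiated and 801 in untreated brain, Cep89 read 89 in irradiated and 727 in untreated brain, the cyclin F gene Ccnf read 73 in irradiated and 325.25 in untreated brain, and the DNA repair gene Alkbh2 read 84 in irradiated and 351 in untreated brain. The lung cytochrome gene Cyp2f2 read 150.5 in irradiated and 627 in untreated brain (4.17-fold lower), the mast cell receptor gene Mrgprb2 read 154.5 in irradiated and 530.5 in untreated brain (3.43-fold lower), and Clec4a1, a lectin of myeloid cells, read 188.5 in irradiated and 482.25 in untreated brain (2.56-fold lower). Of 620 olfactory and vomeronasal receptor genes, which are sensory receptors of the nose, 2 were higher and 4 lower, among them Olfr1245 (374.75 irradiated, 150.5 untreated) and Olfr348 (70 irradiated, 311.5 untreated).

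Among genes with a probe at or above the median intensity and with all probes on one side of 0, the 20 largest higher and the 20 largest lower ones were each read by 1 probe. In 7 of the higher and 7 of the lower ones, the dimmer of the 2 brain samples lay under the median intensity. Of the probes past the threshold, 27 higher and 79 lower ones have no gene symbol. The most extreme among them had 74 in irradiated and 16352 in untreated brain, and the next had 88 in irradiated and 11614 in untreated brain. In liver their log2 ratios were 0.00 and 0.19.

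Several probes were present for some genes, and their places on the transcripts are not known here. Of 3210 such genes, 118 had a probe past the threshold, and in 81 of them it was the brightest probe. Eef2, which moves the ribosome along the mRNA, and Snrpn, a splicing protein of neurons, were the only genes with more than 1 probe past the threshold in the same direction. Eef2 read 2107.5, 285 and 187.5 in irradiated brain and 2402, 760.5 and 340.5 in untreated brain. Snrpn read 1910, 1128.75 and 789 in irradiated brain and 2057, 3090 and 1844 in untreated brain. In both genes the probe given first differed by less than the threshold and the other 2 were lower. Of the 10 called genes with several probes, both higher ones, Cdkn1a and Rasgrp4, had all probes above 0. Of the 8 lower genes, 5 had all probes below 0, namely Snrpn, App, Ptn, Itpripl1 and Zdhhc14. The probes of App, the amyloid precursor protein, read 2425 and 675.5 in irradiated and 3940.5 and 1945.5 in untreated brain, and those of the growth factor gene Ptn read 1606 and 562 in irradiated and 2328.5 and 1568 in untreated brain. In the other 3, namely Egln1, Rassf4 and Srrm4, a single probe made the call. Egln1, the oxygen sensor PHD2, read 170, 310.5 and 134.5 in irradiated brain and 2435, 300.5 and 202.5 in untreated brain, and Rassf4 read 128.5 and 108 in irradiated and 1903.5 and 90.5 in untreated brain.

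Set beside the liver and intestine pairs, which were normalized separately, 4 genes were higher and 8 lower in all 3 organs. The share of all genes past the threshold in liver or intestine is not given here, so these counts have no background. The log2 change of Mdm2 was 1.05 in brain, against 1.30 in liver and 1.39 in intestine, and that of Fkbp5 was 1.17, against 1.61 in liver and 0.97 in intestine. Lcn2, whose size in brain is uncertain because its untreated intensity was dim, read 211.5 in irradiated and 70.5 in untreated brain, 5372.5 in irradiated and 123 in untreated liver, and 209.5 in irradiated and 75.5 in untreated intestine. For Pcx the brain value of 1.00 stood beside 3.65 in liver and 2.29 in intestine. Of the p53 targets, Phlda3 was higher in brain (1.16) and intestine (1.61) and within the threshold in liver (0.59), Trp53inp1 was higher in brain, where its untreated intensity was dim, and in liver (0.93) and not in intestine (-0.21), and Ccng1 was past it in liver (1.89) and intestine (2.08) but not in brain (0.68). Mt1 had 0.87 in brain, beside 0.86 in liver and 0.77 in intestine. Cdkn1a had 0.86 in brain, beside 0.76 in liver and 0.97 in intestine, so that both genes lay near the threshold throughout. Mbp, Gja1 and P2ry12, which were lower in brain, had log2 changes of 0.04, 0.13 and 0.08 in liver. Their liver intensities and intestine values are not given here, so whether these differences were particular to brain is not shown. The p53 list had a median of 0.25 in brain, beside 0.40 in liver and 0.32 in intestine. No difference between organs could be tested with 1 pair each.

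**Figure D5:**
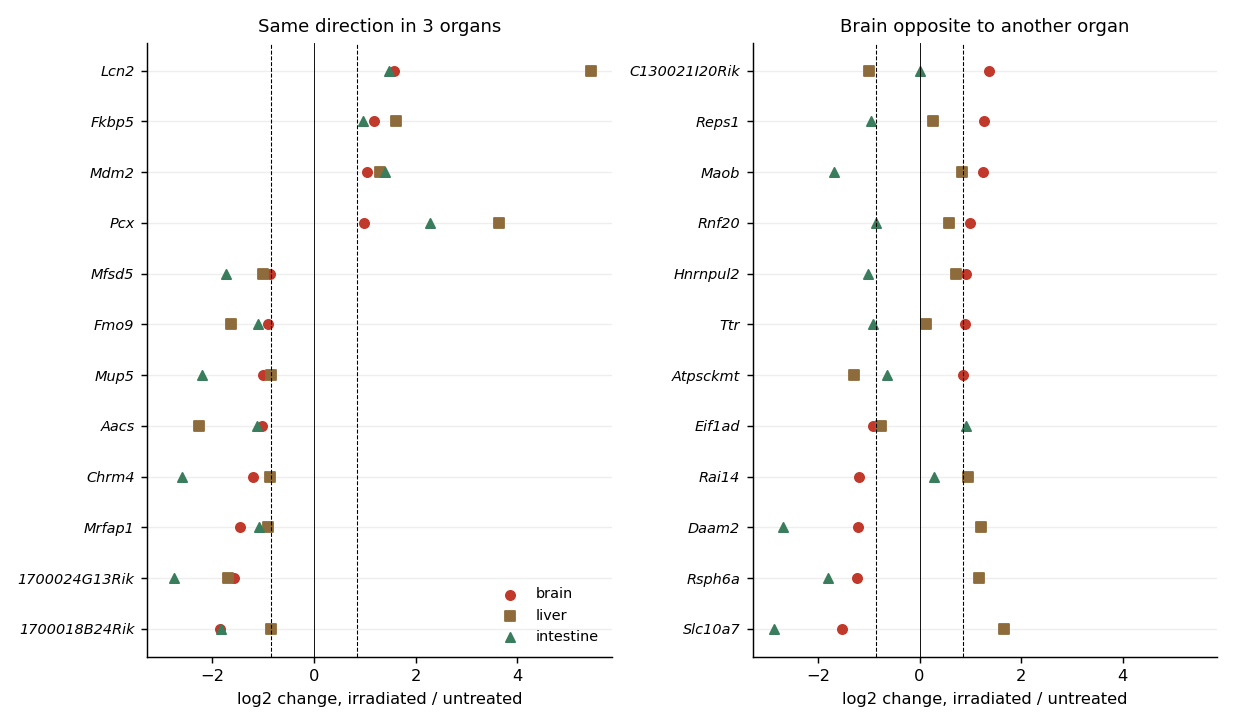
Log2 change between irradiated and untreated samples in brain (circles), liver (squares) and intestine (triangles), for the 12 genes past 1.8-fold (dashed lines) the same way in every organ on the left and the 12 past it one way in brain and the other way in another organ on the right. Lcn2 in liver is the furthest point, and Daam2, Rsph6a and Slc10a7 share one order of the organs.

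The genes lower in every organ were Aacs, Chrm4, Fmo9, Mfsd5, Mrfap1, Mup5, 1700018B24Rik and 1700024G13Rik. Mrfap1, a partner of the chromatin protein Mrg15, had 372.5 in irradiated and 1014.5 in untreated brain (2.72-fold lower) and a log2 change of -0.90 in liver and -1.09 in intestine. Mup5, a major urinary protein of liver, read 70.5 in irradiated and 140.5 in untreated brain. Further genes were lower in brain and liver, among them Hspa8 (log2 change -0.999 in brain, -2.10 in liver), Psma2 (-1.15 in brain, -1.11 in liver), Rheb (-1.45 in brain, -0.92 in liver) and the reticulon gene Rtn3 (-1.31 in brain, -0.98 in liver). Lower in brain and intestine were, among others, Gpx1 (log2 change -1.33 in brain, -1.46 in intestine), Eif4a1 (-1.02 in brain, -1.94 in intestine), Cs (-1.01 in brain, -0.86 in intestine) and Hspa4 (-0.92 in brain, -0.99 in intestine). Alb, the serum albumin of liver, read 112 in irradiated and 290 in untreated brain and had log2 changes of -0.14 in liver and -3.02 in intestine.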

How the data were processed

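RNA labelled with Cy5 was hybridized to the Mouse Whole Genome OneArray, read in 1 colour. The deposited values are intensities on a linear scale, which the authors had corrected for local background, cleared of control and low-signal spots, and normalized in R (the submitters' processing notes name limma, without a version). Sorted, the brain columns differ by at most 0.03 on the log2 scale. For each probe, log2 of irradiated over untreated brain was computed here without a pseudocount, then averaged over the probes of a symbol. Platform symbols were updated to current names for 3410 probes and kept unmatched for 52. With 1 sample per condition no p-value or SD was computed, and how many arrays stand behind a column, which sets the precision, is not known. Of 63 gene lists, 25 had no member past the threshold. Members, lists and alternatives were chosen with earlier results of these data known. Genes named in the text include the 20 largest eligible ones each way, as far as described. Eligible means a probe at or above the median and all probes on one side of 0. List members past 1.8-fold are all named except some olfactory receptors. Of lists with none past it, the 3 largest, only 1 or no gene is named. Also named are defining markers, genes past the threshold in several probes or in all organs, and genes opposed between organs. Others were chosen after their values were seen. Promoters were RefSeq windows of GRCm38.p6. The software was R 4.3.3 (limma 3.58.1) and Python 3.11.15 (matplotlib 3.10.9, numpy 2.4.6, scipy 1.17.1, pandas 2.3.3).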

Additional observations from a re-analysis of the deposited data

Results flagged for a closer look

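In 12 cases a gene passed 1.8-fold one way in brain and the other way in liver or intestine. The share of all genes past the threshold in those 2 organs is not given here, so the count has no background. None of these differences was tested, because each organ has 1 column per treatment. Higher in irradiated than in untreated brain were C130021I20Rik (log2 change 1.364), Reps1 (1.274), Maob (1.24), Rnf20 (0.9862), Hnrnpul2 (0.91), Ttr (0.9039) and Atpsckmt (0.8546). Of these, C130021I20Rik (-0.99) and Atpsckmt (-1.29) were lower in liver, and Reps1 (-0.96), Maob (-1.68), Rnf20 (-0.86), Hnrnpul2 (-1.01) and Ttr (-0.92) were lower in intestine. Lower in brain were Slc10a7 (-1.518), Rsph6a (-1.232), Daam2 (-1.203), Rai14 (-1.193) and Eif1ad (-0.926), of which Eif1ad was higher in intestine (0.91) and the others in liver (1.67 for Slc10a7, 1.17 for Rsph6a, 1.21 for Daam2 and 0.95 for Rai14). Slc10a7, Rsph6a and Daam2 were also lower in intestine (-2.87, -1.80 and -2.70) and were the 3 genes with this pattern over the organs. Slc10a7, a membrane protein related to bile acid transporters, read 799.5 in irradiated brain and 2289.5 in untreated brain. Each of the 12 was read by 1 probe. Of C130021I20Rik (84.5) and Atpsckmt (96.5) the untreated brain intensity, and of Rai14 (89) the irradiated one, lay under the median of 103, so the sizes of these changes are uncertain.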

How the results depend on the processing

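Both brain columns had a median of 103, so dividing each by its median could change no count and no call, and is no check on them. The counts held within 1.5 times their value when probes below the 25th percentile or the median intensity were left out and when the loess trend was removed (62 genes higher and 209 lower), when the brightest probe (101 higher and 184 lower) or the median of the probes stood for its gene, and with the platform's own symbols. They moved by more under 4 settings. With 50 added to both intensities, 52 probes were higher and 182 lower, and 31 genes higher and 84 lower. Quantile normalization of all 6 columns gave 114 genes higher and 220 lower, while its counts of probes (193 and 407) held within 1.5 times. At 2-fold 61 probes were higher and 168 lower, and 36 genes higher and 73 lower, and at 1.5-fold 691 probes were higher and 970 lower, and 377 genes higher and 522 lower. Of 90 genes named by the rule, 24 lost their call with the pseudocount. The calls for Cdkn1a, Mt1, Ttr and Hnrnpul2 were lost with the loess trend removed, that for Mt1 with quantile normalization, and that for Snrpn with the brightest probe. No named gene changed direction. The p53 list had 2 to 5 genes higher and a median of 0.18 to 0.39 over the alternatives. With the loess trend removed, the medians of the respiratory chain and glycolysis lists turned to -0.04 each, and that of the neuron markers was -0.29. List medians shifted by more than 0.1 in 16 of 63 lists without probes below the median. The number was 7 without probes below the 25th percentile, 4 with the brightest probe and 2 with the loess trend removed. Without probes below the median, inflammatory NF-κB targets had a median of 0.51, glucocorticoid-induced genes 0.22, p53 targets of cell death 0.32 and olfactory and vomeronasal receptors -0.19. The cause of these differences was not tested. No paired analysis was possible because each group holds 1 sample. Low intensities limit the folds of dim probes.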
